A study of Mus musculus with 67 samples.

Results

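Mouse chromosome 12 was followed here in single blastomeres, as all bins that the deposited copy number tables place on it: 602 of the 13103 bins listed, at steps of 200 kb in build mm9. Of these, 591 carried usable values, from 2.6 to 120.8 Mb, and the other 11, at the proximal end, had no value in any cell. A strip of 65 bins between 15 and 28 Mb was set apart from the rest of the chromosome because its level had been seen to differ between embryos. The differences of its level between embryos are therefore a description and were not tested. Gains, losses and breaks were compared between treatments on the rest of the chromosome, 105 of its 118 windows of 1 Mb, and a fit over all autosomal windows kept the 13 windows of the strip.

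Aphidicolin inhibits the replicative DNA polymerases and slows replication forks, and DMSO is its solvent. The chromosomes of a cell that divides after incomplete replication can break or fail to separate, and each daughter cell then carries an altered number of copies, which sequencing reads as a gain or a loss. Mouse chromosome 12 is telocentric: its centromere lies at the end from which positions are counted, so a break leaves a proximal piece with the centromere and a distal piece without one. The distal end of the chromosome carries the imprinted Dlk1-Dio3 gene cluster and the immunoglobulin heavy chain locus. The bins are not paired with genes in the files, and no gene is named from their positions here.

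The cells were blastomeres of 8-cell embryos labelled BDF1, a name used for hybrids of the C57BL/6 and DBA/2 mouse strains, grown in culture in CZB medium; whether the embryos or their parents were such hybrids is not given in the labels. Embryos had been exposed at the 4-cell stage either to aphidicolin at 75 ng/ml or to DMSO without the drug. There were 20 DMSO cells from 3 embryos (4, 8 and 8 cells) and 47 Aphidicolin cells from 6 embryos (5 with 8 cells and 1 with 7). The genome of each cell had been amplified and sequenced at low depth (scRepli-seq), so that read density stands for relative DNA copy number. Each cell is named by its treatment and the number of its library, and each embryo by its treatment and number. The embryo is the replicate, since cells of 1 embryo share their ancestors.

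The DMSO cells had 1.47 to 2.83 M reads, with a median of 2.26 M. The Aphidicolin cells had 0.738 to 2.64 M reads, with a median of 2.01 M. A median window of 1 Mb held between 261 and 1119.5 reads per cell, and at the median of 791 reads the counting error is 0.051 on the log2 scale. The X chromosome lay at -0.25 ± 0.05 relative to the autosomes in the 3 control embryos (log2, SD), while the 6 treated embryos had a mean of -1.02 ± 0.07 (SD). The X level thus differed between the groups without overlap and cannot be told apart from the treatment in this design. Its part in the results below was not tested. The deposited metadata list 1 batch for all 67 cells, and each of them passed the deposited quality mark.

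All levels below are log2 values after removal of the profile that all cells share, with 0 at the median of the autosomes of the cell. Copies are 2 times 2 to the power of this level, which takes the autosomal median as 2 copies. The shared profile was made window by window from these same cells, strip included. An embryo close to that profile therefore reads near 2 copies by construction. The picture of the whole chromosome shows 2 kinds of pattern: a narrow strip that belonged to whole embryos, and long gains and losses that belonged to single cells of Aphidicolin embryos.

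**Figure D1:**
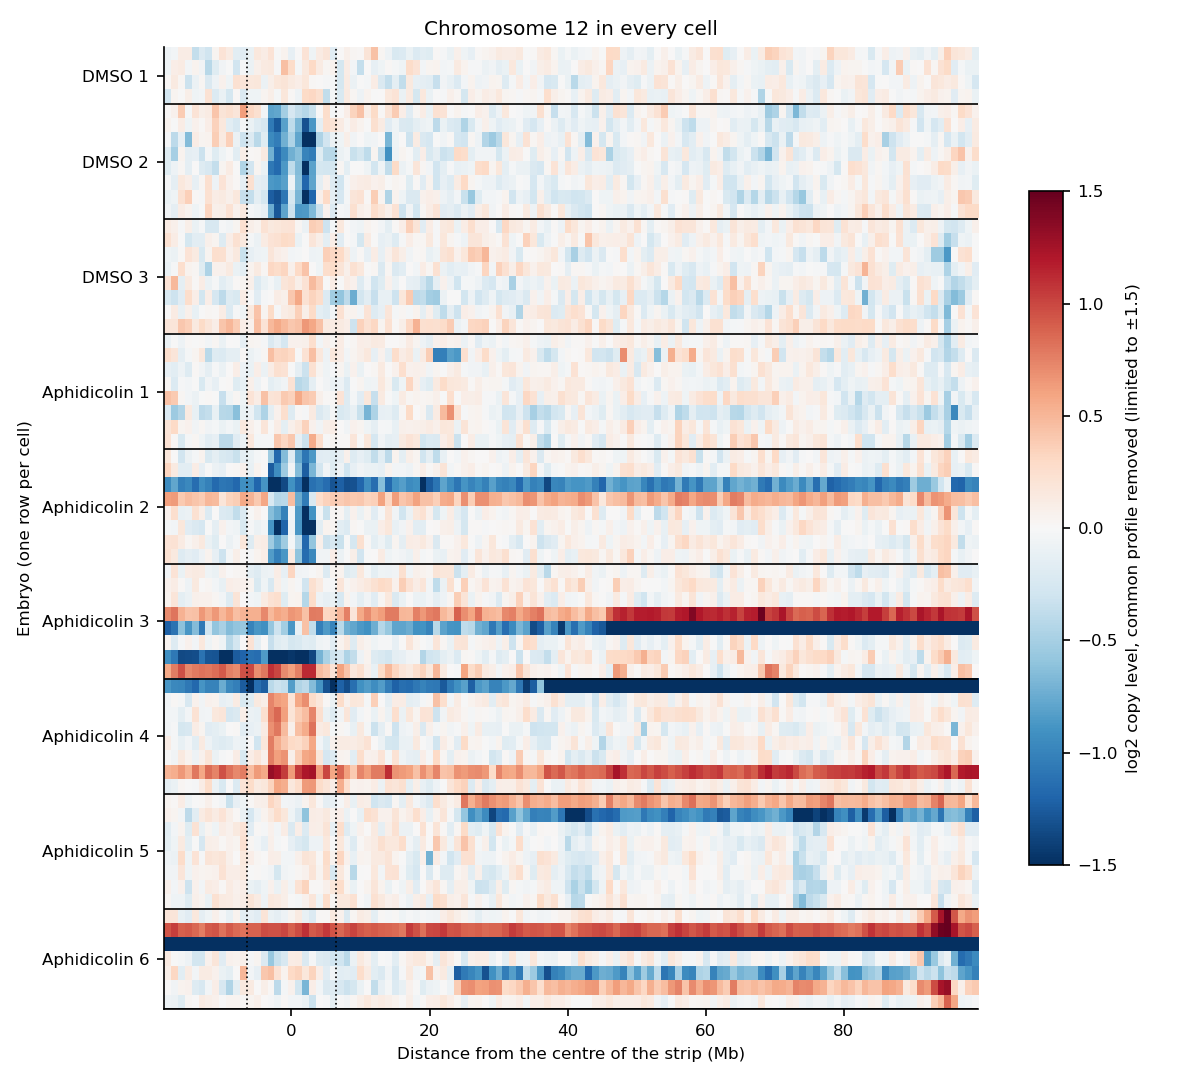
Each row is 1 of the 67 cells, grouped by embryo, and each column is a 1-Mb window of chromosome 12, placed by its distance in Mb from the centre of the strip; colour is the log2 level with the common profile removed, limited to 1.5 in either direction, and dotted lines mark the ends of the strip. The strip is blue in the cells of DMSO 2 and Aphidicolin 2 with neutral flanks and red in those of Aphidicolin 4, while long coloured bars start at different places in single cells of Aphidicolin 2 to Aphidicolin 6.

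The strip was described first. In the inner strip, 17 to 25 Mb, the 4 cells of DMSO 1 held 2.04, 2.21, 2.16 and 2.09 copies. The 8 cells of DMSO 2 held between 0.909 and 1.52 copies, with a median of 1.12. The 8 cells of DMSO 3 held between 1.98 and 2.81, with a median of 2.26. The 8 cells of DMSO 2 thus lay below the 12 cells of the other control embryos, and the difference was present without aphidicolin.

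Aphidicolin 2 also had a low strip: its 6 cells with neutral flanks held between 0.970 and 1.38 copies in the inner strip (median 1.18), and the flanks themselves, 8 to 15 and 28 to 35 Mb, were not called. In Aphidicolin 4 the strip was high. The 6 cells with neutral flanks held between 2.59 and 3.02 copies, with a median of 2.88. The other 4 Aphidicolin embryos lay around 2 copies, with medians of 2.10 in Aphidicolin 1, 1.94 in Aphidicolin 3, 2.08 in Aphidicolin 5 and 1.94 in Aphidicolin 6 (cells with neutral flanks, n = 8, 4, 8 and 5). Before the shared profile was removed, mean reads per window in these cells were higher in the inner strip than in the flanks. They were 916 against 670 in Aphidicolin 1 and 990 against 770 in Aphidicolin 3. In Aphidicolin 5 they were 972 against 775, and in Aphidicolin 6 they were 819 against 692.

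Measured against the flanks of the same cell, the inner strip was at -0.85 ± 0.19 in DMSO 2 (log2, SD, n = 8 cells), -0.68 ± 0.19 in Aphidicolin 2 (SD, n = 6) and 0.50 ± 0.09 in Aphidicolin 4 (SD, n = 6). Of the remaining embryos, Aphidicolin 3 was lowest at -0.05 ± 0.12 (SD, n = 4), and the highest was DMSO 3 at 0.20 ± 0.14 (SD, n = 8). The SD between the 9 embryo means was 0.432, against a median SD of 0.142 among cells within an embryo (57 cells with neutral flanks). No cell of DMSO 2 or Aphidicolin 2 with neutral flanks came above -0.49, and no such cell of the other embryos came below -0.24. Aphidicolin 4 was less apart, since its lowest cell was at 0.38 and 2 cells of other embryos lay higher, up to 0.43.

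The level over the full strip, 15 to 28 Mb, gave smaller differences, and its outer parts were closer to 0. Its mean was -0.37 ± 0.13 in DMSO 2 (log2, SD, n = 8), -0.22 ± 0.11 in Aphidicolin 2 (SD, n = 6 with neutral flanks) and 0.22 ± 0.05 in Aphidicolin 4 (SD, n = 6 with neutral flanks). At the limits of 15 and 28 Mb there was no step in DMSO 2: the bin just outside the proximal limit was at -0.13 ± 0.24 and the bin just inside at -0.17 ± 0.20 against the mean of DMSO 1 and DMSO 3, and at the distal limit the values were -0.19 ± 0.19 inside and -0.18 ± 0.18 outside (SD, n = 8). In Aphidicolin 2 the 4 bins at the limits lay between -0.04 and -0.00.

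Among 2133 autosomal stretches of 13 Mb, the range of the 3 control embryo means was 0.520 for the strip, which ranked 4. The 3 stretches above it, with ranges of 0.528 to 0.535, start 1 to 3 Mb further on and overlap it. The first stretch on another autosome, at 21 to 34 Mb of chromosome 7, ranked 12 with a range of 0.243. These ranks describe the region that was chosen for this property.

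Fine bounds were fitted as a plateau with ramps of 1 Mb, since neighbouring bins overlap. The low strip ran from 18.2 to 25 Mb both in DMSO 2 (plateau -0.89) and in Aphidicolin 2 (plateau -0.81), a length of 6.8 Mb. The high strip of Aphidicolin 4 ran from 17.8 to 25.2 Mb (plateau 0.55), a length of 7.4 Mb. Fitted cell by cell, the start was between 17.8 and 18.2 Mb and the end between 24.8 and 25.2 Mb in the 8 cells of DMSO 2. In Aphidicolin 2 the start was between 18 and 22.4 Mb and the end between 24.4 and 25.2 Mb (n = 6), and in Aphidicolin 4 the start was between 17.6 and 18.2 Mb and the end between 24.4 and 29.6 Mb (n = 6). When the chromosome was segmented with the strip kept in, a loss at the strip was called in 7 of the 8 cells of DMSO 2. Such a loss was called in 5 of the 8 cells of Aphidicolin 2, and a gain in 5 of the 8 cells of Aphidicolin 4. That gain count includes cell 57, in which the surrounding chromosome was gained too. In cell 51, whose surrounding chromosome was lost, the strip segment was called a loss (1.37 copies). The ranges over cells overlapped between the 3 embryos for both bounds. On the values as deposited, with the common profile left in, the start moved to 22.8 Mb in Aphidicolin 2 and to 17 Mb in Aphidicolin 4.

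Inside these bounds the strip was not a plateau. The deepest bin of DMSO 2 was chr12:23400001-23600000, at -2.28 ± 0.37 against the mean of DMSO 1 and DMSO 3 (log2, flanks at 0, SD, n = 8), and the same bin was the deepest of Aphidicolin 2, at -2.47 ± 0.32 (SD, n = 6). As a level this is 21.2 ± 5.29% of that reference in DMSO 2 and 18.5 ± 4.37% in Aphidicolin 2. Both are below the 50% that 1 copy would give if the reference cells held 2 copies in this bin, which was not tested. The cells of DMSO 2 ranged from 13.3 to 27.9% and those of Aphidicolin 2 from 12.9 to 24.6%, while the 12 reference cells ranged from 81.1 to 119.8%. Between 145 and 350 reads stood behind the bin in DMSO 2, and between 917 and 1738 in DMSO 3. Positions of bins named here and below are those of 200-kb steps. The width of the overlapping bins is not stated, and about 1 Mb was inferred from bins 5 steps apart. The dip is therefore not placed to within 200 kb, and the reads are those of the wider bin.

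Between the dips the level returned towards that of the flanks. At 21 to 22 Mb, Aphidicolin 2 was at 93.0 ± 3.41% of the reference (SD, n = 6) and Aphidicolin 4 at 100.6 ± 7.54% (SD, n = 6), whereas DMSO 2 was at 68.3 ± 5.72% (SD, n = 8). All 8 cells of DMSO 2 lay between 61.7 and 79.9% here, below the 6 cells of Aphidicolin 2, which lay between 89.5 and 99%. The low strips of the 2 embryos thus dipped in the same bins and differed in level in the stretch between the dips. In Aphidicolin 5, whose strip was near 2 copies, the same stretch was at 82.3 ± 4.66% (SD, n = 8).

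In Aphidicolin 4 the strip was high where DMSO 2 and Aphidicolin 2 dipped. Its highest bin was chr12:18600001-18800000, at 0.64 ± 0.16 (log2, SD, n = 6) or 157 ± 18.7% of the reference. In the deepest bin of DMSO 2 its 6 cells were at 146 ± 18.6%, from 125 to 177%. Over the 40 bins from 17 to 25 Mb the mean shapes of DMSO 2 and Aphidicolin 2 had a Pearson correlation of 0.97, and Aphidicolin 4 correlated at -0.83 with DMSO 2 and at -0.80 with Aphidicolin 2. These are descriptions over bins that overlap, of which 8 share no reads, and all shapes share the same reference. Aphidicolin 6 had a shape like that of DMSO 2 (correlation 0.77) at a small size: its 5 cells with neutral flanks were at 70.6 ± 17.9% in the deepest bin (SD).

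All cells of DMSO 2 lay below all 12 cells of DMSO 1 and DMSO 3 in 25 of the 65 strip bins and in 0 of the 526 bins of the rest of chromosome 12; over the autosomes without the strip the share of such bins was 0.1%. For the 6 cells of Aphidicolin 2 the counts were 25 of 65 and 0 of 526, beside 0.142% over the autosomes. The 6 cells of Aphidicolin 4 lay above the same reference cells in 4 of 65 and 0 of 526 bins, beside 0.0167%. Since the strip was chosen for this difference, nothing is read from the contrast with the background.

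**Figure D2:**
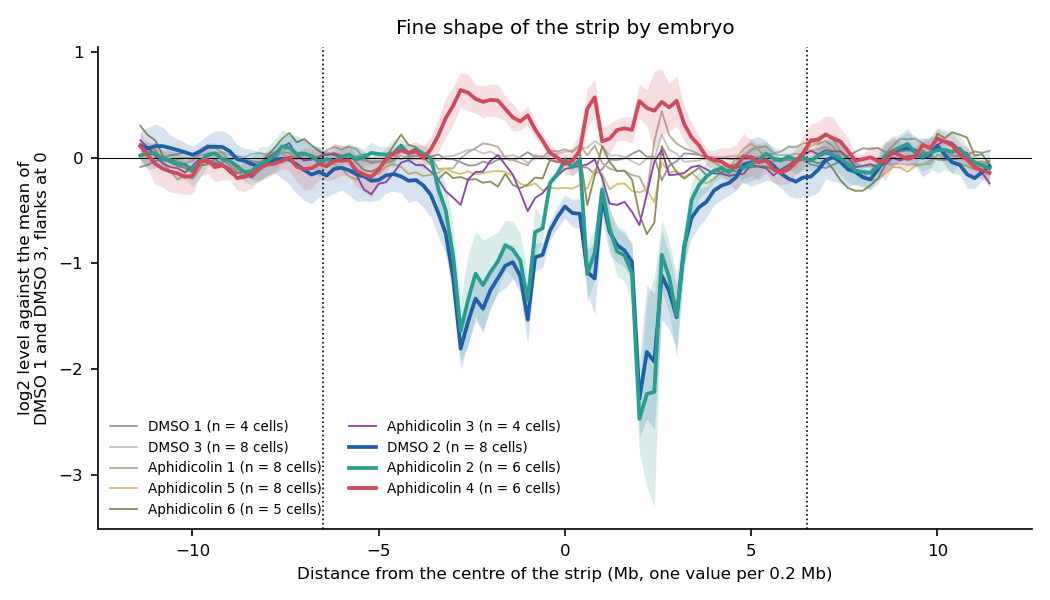
Mean log2 level of each embryo against the mean of DMSO 1 and DMSO 3, with flanks set to 0. Values are at steps of 0.2 Mb, by distance from the centre of the strip, and the bins overlap. Shaded bands are 1 SD over cells for the 3 embryos drawn thick. Only cells with neutral flanks are used, and dotted lines mark the ends of the strip. DMSO 2 and Aphidicolin 2 dip at the same places, down to -2.28 and -2.47, and Aphidicolin 4 peaks where they dip, up to 0.64.

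The strip was then followed into cells in which the surrounding chromosome itself was gained or lost. A shape score was used, in which 1 is the mean strip of DMSO 2 and 0 that of DMSO 1 and DMSO 3, both by construction, computed on ratios to the flanks of the same cell. Cells of DMSO 2 scored 0.90 to 1.13 and neutral cells of Aphidicolin 2 scored 0.71 to 1.06, while those of Aphidicolin 4 scored -0.82 to -0.42.

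In Aphidicolin 2 the deepest bin stayed low in a cell with a gain and in a cell with a loss of the surrounding chromosome. Aphidicolin cell 38 had 2.62 copies in the flanks and 1.60 in the inner strip, a score of 0.92 and a deepest bin at 10.3% of the reference, below the neutral cells. Its opposite, Aphidicolin cell 37, had 0.915 copies in the flanks and 0.846 in the inner strip, a score of 0.55 and a deepest bin at 20.04%, inside the range of the neutral cells. The ratio of inner strip to flank was 0.61 in cell 38, within the 0.51 to 0.71 of the neutral cells, and 0.92 in cell 37, outside it. Over the full strip the levels relative to the flanks were small, -0.13 in cell 38 and -0.01 in cell 37.

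In Aphidicolin 4 the strip stayed high relative to its flanks. Aphidicolin cell 51 had 1.01 copies in the flanks and 1.49 in the inner strip, with a score of -0.44. Aphidicolin cell 57 had 3.38 and 4.40 copies, with a score of -0.38. Over the full strip the levels relative to the flanks were 0.15 and 0.24, and they fell to 0.07 and 0.04 when 1 bin in 5 was used. The deepest-bin levels of cells 51 and 57, 167% and 145%, fell within the range of the neutral cells. The ratio of inner strip to flank was 1.4692 in cell 51, within the 1.3045 to 1.4942 of the neutral cells. In cell 57 it was 1.2994, slightly under that range. The score of cell 57 also lay outside the -0.82 to -0.42 of the neutral cells.

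In Aphidicolin 3 the cells with changed flanks differed in strip shape. Aphidicolin cell 47, with 1.30 copies in the flanks, was at 188% of the reference in the deepest bin (1424 reads). Aphidicolin cell 49, with 0.819 copies in the flanks, was at 40.2% there (169 reads). Their scores were -0.40 and 0.54, with shape correlations to DMSO 2 of -0.60 and 0.83. So 2 cells of 1 embryo, each with a loss of the proximal chromosome, had opposite signs of the shape score and of the inner strip relative to the flanks, 0.18 in cell 47 and -0.22 in cell 49. The level over the full strip did not have opposite signs. Relative to the flanks it was -0.22 in cell 47 and -0.08 in cell 49. It was 0.33 and 0.35 in the values as deposited, and 0.01 and 0.10 as a mean over windows. For cell 49 these levels are relative to the left flank alone. Its fitted break at 25.2 Mb lies inside the full strip, so the full-strip levels of the 2 cells are not measured alike.

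The gained cells of this embryo lay between these values. Aphidicolin cell 46, which had 2.95 copies in the flanks and was the opposite of cell 47, was at 68.4% in the deepest bin, with a score of 0.20 and a shape correlation of 0.57. Aphidicolin cell 50, the opposite of cell 49, had 3.51 copies in its left flank and a neutral right flank. It was at 105%, with a score of 0.07 and a shape correlation of -0.49. The 4 cells with neutral flanks, 43, 44, 45 and 48, were at 78.6, 62.7, 44.5 and 77.8%, with scores of 0.16, 0.35, 0.12 and 0.36. In each of these pairs the lost and the gained cell thus differed in the sign of the shape correlation. With 1 bin in 5, with a reference of 6 embryos or with values as deposited, the scores of cells 47 and 49 kept opposite signs; the score of cell 50 turned to -0.08 with the reference of 6 embryos.

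Cells of 1 embryo with opposite changes were then summed, and their inner strip was set beside 2 times the mean of the cells of the embryo with neutral flanks. Cells 38 and 37 of Aphidicolin 2 held 2.45 copies together, against 2.36 ± 0.282 (SD, n = 6 cells). Cells 57 and 51 of Aphidicolin 4 held 5.88, against 5.70 ± 0.335 (SD, n = 6), and cells 68 and 69 of Aphidicolin 6 held 3.92, against 4.01 ± 0.580 (SD, n = 5). In Aphidicolin 3 the sums were higher, 4.53 for cells 46 and 47 and 4.43 for cells 50 and 49, against 3.89 ± 0.294 (SD, n = 4) with a highest value of 4.25 among those cells. The flanks of these 2 pairs also summed to more than 4 copies, 4.25 and 4.33, the latter over the left flank alone. For the inner strip the other 3 sums lay within the range of their neutral cells. In the deepest bin alone the sums of Aphidicolin 3 were 4.46 and 4.02 copies, against 2.65 ± 0.637 (SD, n = 4). The pair of Aphidicolin 2 held 0.452 copies there, below the lowest value of 0.488 among its neutral cells.

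**Figure D3:**
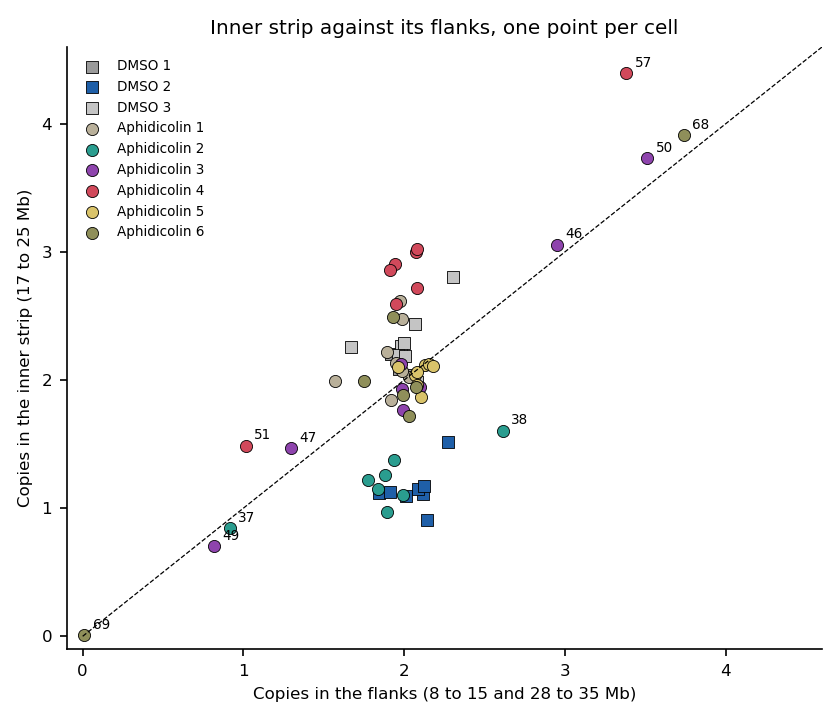
Copies in the inner strip against copies in the flanks for each of the 67 cells; squares are DMSO and circles Aphidicolin cells, colour is the embryo, the dashed line is equality, and numbers name the cells whose flanks were called a gain or a loss. DMSO 2 and Aphidicolin 2 lie below the line and Aphidicolin 4 above it, also at 1.01 and 3.38 flank copies, while cells 47 and 49 of Aphidicolin 3 lie on opposite sides of it. For cells 49 and 50 the flank is the left flank alone.

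**Figure D4:**
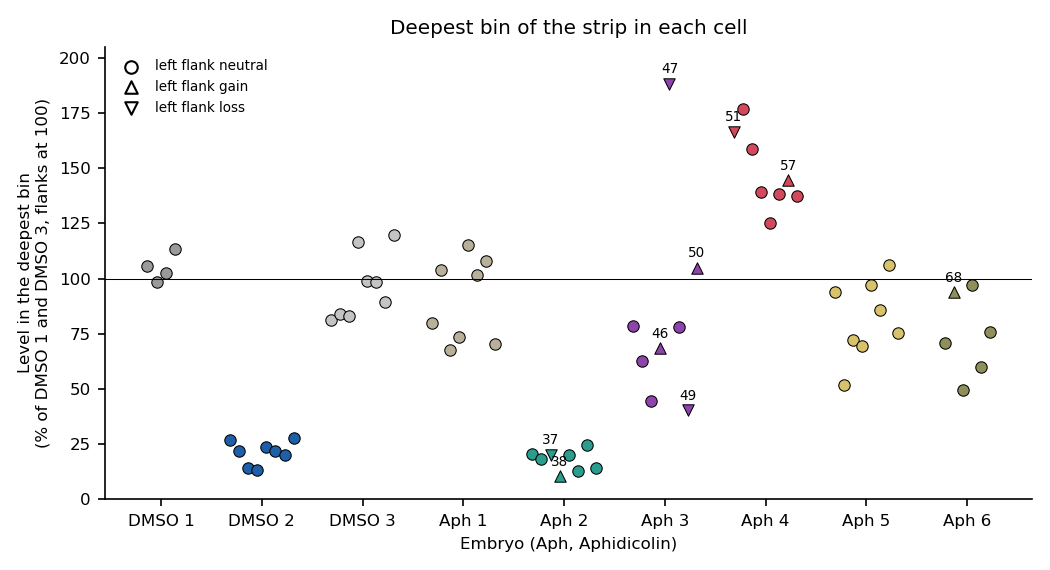
Level of each cell in the deepest bin of the strip, as a percentage of the mean of DMSO 1 and DMSO 3 with the flanks of the cell at 100; the marker gives the called state of the left flank and numbers name cells with a called flank. Cell 69, at almost 0 copies, is left out, and for cells 49 and 50 the flank is the left flank alone. DMSO 2 and Aphidicolin 2 lie below 30%, and Aphidicolin 3 spans 40.2 to 188% between cells 49 and 47.

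The weight of the common profile, the factor by which the shared profile was scaled to fit a cell, differed widely within Aphidicolin 2, from 0.30 to 1.21. The 4 cells with weights of 0.30 to 0.39 had scores of 0.85 to 1.06 and the other 4 scores of 0.55 to 0.92, so the low strip was present at both low and high weights.

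Outside the strip, cells of 5 of the 6 Aphidicolin embryos carried long gains and losses of chromosome 12. Segments had to span at least 10 Mb. Those over 0.32, the level of 2.5 copies, counted as gains, and those under -0.42, the level of 1.5 copies, as losses. There were 22 events, 9 gains and 13 losses, in 16 of 47 Aphidicolin cells (34%, 95% exact binomial interval 20.9 to 49.3%) and in 0 of 20 DMSO cells, which allows a share of up to 16.8%. These intervals treat cells as independent and cover counting error only. Gains took up 594 and losses 593 of 4935 windows by cells outside the strip (12% each). Over all autosomes in Aphidicolin cells 12.5% of windows were in a gain and 13% in a loss, and in DMSO cells 0.245% and 0.0818%.

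By embryo, 0 of 8 cells were called in Aphidicolin 1, 2 of 8 in Aphidicolin 2, 4 of 8 in Aphidicolin 3, 2 of 8 in Aphidicolin 4, 2 of 8 in Aphidicolin 5 and 6 of 7 in Aphidicolin 6. The mean share of cells called was 35.1 ± 29.4% over the treated embryos (SD, n = 6) and 0 ± 0% over the controls (SD, n = 3), a difference that did not pass the exact two-sided permutation test over 84 splits (p = 0.0833, adjusted p = 0.125). Breaks per cell were 0.262 ± 0.253 against 0 (exact p = 0.214, adjusted p = 0.214). The share of windows called was 24.6 ± 16.8% against 0 (exact p = 0.0833, adjusted p = 0.125). Adjustment was by Benjamini-Hochberg over the 3 measures. In each of them the groups overlapped: Aphidicolin 1 was at 0 in all 3 measures, and Aphidicolin 2 also had no break. With the common profile left in the values, the difference in the share of cells turned to -17.0 points and that in breaks per cell to -1.15 (Aphidicolin minus DMSO).

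Against other autosomes no difference passed the test. Within the 6 Aphidicolin embryos the share of chromosome 12 windows called was 24.6%, against 25.7% for the mean of the other 18 autosomes, a difference of -1.10 ± 14.4 percentage points (SD, n = 6; exact sign-flip permutation p = 0.8125, smallest possible 0.03125). It was higher on chromosome 12 in 3 of 6 embryos. The direction rested on single embryos, and the difference was 2.87 points without Aphidicolin 1, 0.70 without Aphidicolin 3 and 0.41 without Aphidicolin 5.

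Embryo means of each window were also compared between treatments with limma over all 2397 autosomal windows. With Benjamini-Hochberg adjustment, 0 of 118 windows of chromosome 12 passed an adjusted p of 0.05, as did 0 of 2397 over all autosomes (0%), and the lowest adjusted p on chromosome 12 was 0.661. At an unadjusted p under 0.05 there were 2 windows on chromosome 12 (1.69%), neither in the strip, and 141 over all windows (5.88%). Windows outside the strip were at a median of -0.35 in Aphidicolin relative to DMSO embryos on the log2 scale, beside -0.12 over all windows. The near-0 segments of 3 cells enter these log2 means, and without the chromosomes that held a call the median outside the strip was -0.00.

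Each of the 16 cells with an event had, in the same embryo, a cell with the opposite change, and the cells formed 8 mutually most opposite pairs. These pairs were picked for the largest share of opposed windows. In 7 of the 8 pairs every called window was opposed, and in cells 50 and 49 of Aphidicolin 3 the share was 92.3%. The pairing was not unique, since 10 pairs of cells had opposite events overlapping by at least 50%. In Aphidicolin 6, cell 68 also opposed cell 71 (sum of 4.96 copies), and cell 72 also opposed cell 69 (sum of 2.85 copies). The median sum of the copies of the 2 cells over all windows outside the strip, called or not, was between 3.82 and 4.25. Unchanged cells would give 4 copies. In cells 67 and 70 only 10 of the 105 windows were called, and in cells 50 and 49 only 13 and 12. Unchanged windows thus set the median near 4 in these pairs. Over the opposed events, each at its own median level, the sums of the 8 pairs ran from 3.70 (cells 57 and 51) to 4.42 (cells 67 and 70).

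**Figure D5:**
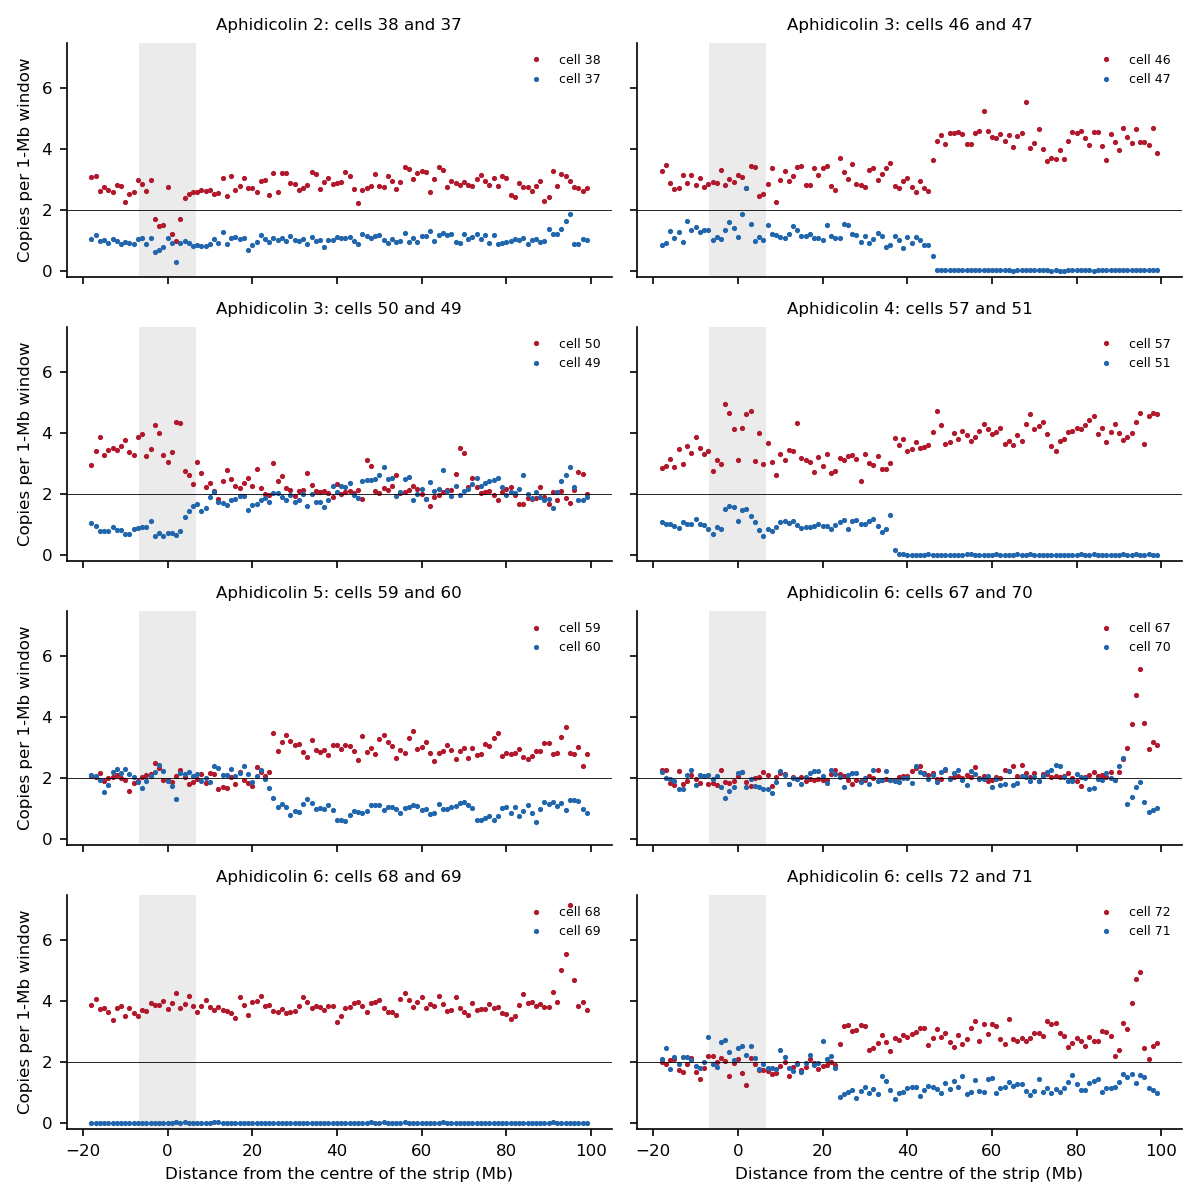
Copies per 1-Mb window in the 8 pairs of cells with opposite changes, by distance from the centre of the strip; red points are the gained and blue points the lost cell of a pair, the grey band is the strip and the line is 2 copies. Cells 47 and 51 fall to almost 0 copies distally and cell 69 along the whole chromosome, where their partners are near 4, and cells 67, 68 and 72 have a peak near the distal end.

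Whole-chromosome changes made up 2 pairs. Aphidicolin cell 38 gained the chromosome outside the strip (2.83 copies) and cell 37 lost it (1.03 copies). In Aphidicolin 6, cell 68 had 3.81 copies and cell 69 had 0.00842, with 5.5 reads in a median window of the inner strip. In Aphidicolin 3 a pair changed level along the chromosome: cell 46 went from 2.97 to 4.36 copies and cell 47 from 0.887 to 0.0137. The break was at 67.4 Mb in each of them, fitted at 200-kb steps.

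Cells 57 and 51 of Aphidicolin 4 were segmented with the strip taken out, like the others. A break was called in cell 51, while cell 57 was called as 1 gain of the whole chromosome (3.69 copies). With the strip kept in, cell 57 also had a break called at 58 Mb, from 3.10 to 3.99 copies. Cell 51 had 0.998 copies up to the break and 0.00682 beyond it, and a single step fitted to cell 57 rose from 0.55 to 0.88 on the log2 scale. The step was fitted at 58.2 Mb in cell 51 and 57.8 Mb in cell 57. In both of these embryos the distal piece, without the centromere, was thus at near 0 copies in one cell and near 4 in its partner, while the proximal piece was near 1 and near 3. The third segment below -3 on the log2 scale was the whole chromosome of cell 69.

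The reverse arrangement, a proximal change with a normal distal part, was found in 1 pair. Aphidicolin cell 49 lost (0.817 copies) and cell 50 gained (3.44 copies) the chromosome up to the distal edge of the strip. The fitted break was at 25.2 Mb in cell 49 and 25.4 Mb in cell 50, beside the strip end of 25 to 25.2 Mb fitted in other embryos. The signal of the strip itself enters this fit. In the other 14 cells an event reached the distal end.

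Breaks near 45 Mb came from 2 embryos. In Aphidicolin 5, cell 59 gained (2.91 copies) and cell 60 lost (1.01 copies in the first segment) the chromosome beyond it, with fitted breaks at 45.8 and 46.4 Mb and 46 Mb from their difference. In Aphidicolin 6, cell 72 gained (2.84 copies) and cell 71 lost (1.15 copies), with breaks at 45.4 and 44.8 Mb and 45 Mb from their difference. The embryos were 1.0 Mb apart, and cells of a pair were up to 0.6 Mb apart, so the distance between the embryos was within 2 times the distance between cells of a pair.

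Breaks near 110 Mb were farther apart. Cells 67 and 70 of Aphidicolin 6 had a gain (3.13 copies) and a loss (1.29 copies) called from 111 Mb to the distal end. At 200-kb steps the break lay at 112.8 Mb in cell 67 and 113.0 Mb in cell 70; the call began earlier because a segment had to span 10 Mb. The weak break of cell 60 of Aphidicolin 5, where the lost segment went from -1.39 to -0.79, lay at 109.6 Mb. A further weak break of this cell lay at 93.6 Mb, and one of cell 47 at 55.8 Mb.

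Shorter stretches outside the strip also differed between embryos. They were picked after their values were seen, span less than the 10 Mb needed for a call and were not tested. Between 114 and 117 Mb the level of Aphidicolin 6 was 0.66 ± 0.17 above that of the last 3 Mb of the chromosome (log2, SD, n = 6 cells, from 0.53 to 0.89). In Aphidicolin 2 it was 0.37 ± 0.19 above (SD, n = 8, from 0.12 to 0.71). Cells of Aphidicolin 3 were spread from -0.49 to 0.58, with a mean of 0.18 ± 0.38 (SD, n = 7). Aphidicolin 1, Aphidicolin 4 and Aphidicolin 5 had means of -0.05, -0.04 and -0.00. The control embryos DMSO 1, DMSO 2 and DMSO 3 were at 0.13 ± 0.16 (SD, n = 4), -0.11 ± 0.24 (SD, n = 8) and -0.18 ± 0.32 (SD, n = 8), so the spread within a control embryo was at least as large as the size of its mean. This raised stretch lies inside the distal events of cells 67 and 70, whose difference placed the break at 113.0 Mb.

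In Aphidicolin 5 there were 2 low stretches. At 61 to 65 Mb the level was -0.28 ± 0.20 relative to both neighbours (log2, SD, n = 8) and below 0 in 7 cells, and at 94 to 99 Mb it was -0.33 ± 0.25 (SD, n = 8), again below 0 in 7 cells. Cell 60, which had lost this part of the chromosome, was lowest in both, at -0.61 and -0.73. Cell 59, which had gained it, was the cell above 0 in both, at 0.08 and 0.11. The means of the other 8 embryos lay between -0.06 and 0.11 in the first stretch and between -0.11 and 0.10 in the second. The weak break of cell 60 at 93.6 Mb lies at the start of the second stretch.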

How the data were processed

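The authors deposited log2 values per cell, set to a median of 0 in each cell, in bins of build mm9 (submitters' processing notes); the aligner was not given in the sources used. Deposited metadata gave embryo, batch and a quality score per cell. Values of bins 5 steps apart came out as whole reads within 0.01 for 100% of values, which gave the read numbers. Bins without a value in most cells were dropped, and remaining empty values were set to 0.5 reads: 75 on chromosome 12, all in cells 47, 51 and 69. Medians over 1-Mb windows (at least 3 bins) were taken, a common profile was removed by Huber regression, and segments of at least 10 Mb were found by optimal partitioning (penalty 4), after taking the strip out. Tests used embryos. Software was Python 3.11.15, numpy 2.4.6, scipy 1.17.1, R 4.3.3 and limma 3.58.1, tested on simulated data. Cells were named where a flank was called or the strip was extreme in its embryo; events were named if among the 10 largest, near 45 or 110 Mb, or opposed by another cell. The members and lists were chosen with earlier results of these data known. The shape score was chosen after seeing the data, as was leaving out cells of low profile weight. No genome of build mm9 was used here, so no genes or sequences are given.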

Additional observations from a re-analysis of the deposited data

Results flagged for a closer look

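Of 30 groups of 4 to 10 cells, 4 held a cell far from the others of its embryo by Dixon's criterion, which chance gives in about 1 in 20 groups. The strip level (log2) was lowest in cell 37 of Aphidicolin 2 (-1.14), in cell 51 of Aphidicolin 4 (-0.836) and in cell 69 of Aphidicolin 6 (-7.68). These 3 cells had lost the chromosome around the strip. The shape score of cell 59 of Aphidicolin 5, whose flanks were neutral, was -0.0453, the lowest of its embryo.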

How the results depend on the processing

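With values as deposited, the common profile left in, the difference in share of cells turned to -17.0 points, that in breaks per cell to -1.15 and that against other autosomes to 0.318 points; the cause was not tested. The last also turned without Aphidicolin replicate 1, 3 or 5 and, in an alternative added after seeing the data, without cells of low profile weight (2.49 points). Leaving out 1 embryo gave 25 to 42.1% for the share of cells, 0.2 to 0.314 breaks per cell, 19.2 to 29.6% of windows, -4.82 to 2.87 points against other autosomes, and 0 limma windows each time. The count of windows at an unadjusted limma p under 0.05 ran from 0 to 17, the highest without Aphidicolin 1. With a minimum length of 5 Mb the share of cells differed by 41.4 points (exact permutation p = 0.0238, adjusted p = 0.0714). The share of windows then differed by 24.8 points (exact permutation p = 0.0476, adjusted p = 0.0714), and breaks per cell by 0.387 (exact permutation p = 0.310, adjusted p = 0.310). Without Aphidicolin 1 the share of windows had an exact permutation p of 0.0179 (adjusted p = 0.0536). No adjusted p was under 0.05 in any setting. The strip level was -0.81 (inner strip) and -0.51 (mean over windows) in DMSO 2 and -0.77 (inner strip) in Aphidicolin 2. As deposited it was 0.38 in DMSO 1, 0.43 in DMSO 3, 0.23 in Aphidicolin 1, 0.19 in Aphidicolin 5 and 0.53 in Aphidicolin 4, so that both of these control embryos came near Aphidicolin 4, and it turned from -0.15 to 0.21 in Aphidicolin 3. With the profile made without the embryo it was 0.15 in DMSO 1 and 0.36 in DMSO 3. Leaving out 1 cell gave -0.40 to -0.34 in DMSO 2, -0.35 to -0.15 in Aphidicolin 2, 0.07 to 0.33 in Aphidicolin 4 and -1.31 to 0.13 in Aphidicolin 6, the highest without cell 69. The end in DMSO 2 moved to 24.8 Mb (as deposited, and with sharp edges) and its start to 18 Mb (profile without the embryo); leaving out 1 cell gave starts of 18 Mb, without cell 14, to 18.2 Mb. As deposited, the start moved to 22.8 Mb in Aphidicolin 2 and 17 Mb in Aphidicolin 4. The score of cell 50 turned to -0.079 with a reference of 6 embryos. For the strip relative to its flanks in gained or lost cells, 22 of 45 values moved. As deposited, the sign turned in cells 46 (-0.02 to 0.35), 47 (-0.22 to 0.33), 49 (-0.08 to 0.35) and 50 (-0.06 to 0.35), and cell 57 went from 0.24 to 0.04 with 1 bin in 5; the cause was not tested. The full strip of cells 49 and 50 holds their fitted breaks, so their full-strip values mix both sides of the break. Leaving out cells was not run for the values relative to the flanks, each of 1 cell. No paired analysis was possible because DMSO and Aphidicolin embryos carry no shared number. Depth was lowest in cell 34 (0.7375 M reads); cell 69, at 2.20 M reads, had 5.5 reads per window in the inner strip.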
